A study of Drosophila melanogaster with 9 samples.

Results

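Mur18B and 5 other mucin-related genes, Mur29B, Mur2B, Mur11Da, Mur82C and Mur89F, were followed through 9 RNA-seq libraries of Drosophila melanogaster Malpighian tubules. They are 6 of the 17611 genes in the deposited count table, taken by their FlyBase symbols. Mur18B was chosen by its measured share of all counts, which is large in every library, so that share and its level are given as a description. In short, Mur18B, the most counted gene in 8 of 9 libraries, fell 2.48-fold in tubules of flies with a yki3SA tumour. It was 1.98-fold higher in flies that also carried ITP-i, a construct read as targeting ITP, than in yki3SA flies. Mur29B, in contrast, rose 3.94-fold in yki3SA tubules and was higher still with ITP-i.

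Mucins are secreted or membrane-bound proteins rich in proline, threonine and serine repeats, to which sugars are attached through oxygen in the Golgi. The first sugar, N-acetylgalactosamine, is added by enzymes of the Pgant family, and core 1 galactosyltransferases extend the chain. Such glycoproteins bind water and coat the surfaces of epithelia, and insect mucins that also bind chitin are part of the peritrophic matrix that lines the gut. In FlyBase, Mur stands for mucin related and Muc for mucin. The Malpighian tubule is the fly's renal epithelium: principal cells move cations and organic solutes, stellate cells carry chloride and water, and renal stem cells lie near the ureter.

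The libraries fall into 3 groups of 3. The yki3SA+ITP-i flies carried esg-Gal4, tub-Gal80ts, UAS-GFP over UAS-Yki-3SA with UAS-ITP-i, the yki3SA flies the same driver set over UAS-Yki-3SA, and the control flies the driver set alone. Yki-3SA is an active form of Yorkie, the transcriptional co-activator of the Hippo pathway, and ITP-i is read here as an RNA-interference construct against ITP, the ion transport peptide, a hormone that acts on the renal system of insects. All groups share the esg-Gal4 driver, which works in gut progenitors as well as in the tubule's own stem cells, the temperature-sensitive Gal80 and UAS-GFP. Virgin progeny spent 6 to 8 days at 18 °C before a shift to 29 °C, held for 8 days, that switched the transgenes on, and 80 tubules of each genotype were taken for poly-A RNA. By these genotypes neither the control nor the yki3SA flies carried a neutral RNA-interference construct. The yki3SA+ITP-i flies thus carried an extra UAS transgene beside the yki3SA flies, and its presence as such cannot be told apart from targeting ITP. The titles mark the control and yki3SA libraries, but not the yki3SA+ITP-i ones, as analysed again, so this difference and the ITP-i construct cannot be told apart. Nothing in the labels says that the libraries of a group came from separate cultures, so the p-values measure the spread between these libraries, which may be technical.

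The libraries held 34640437 to 49338340 counts assigned to genes. Unless stated otherwise, CPM are counts scaled to a common library total with TMM (trimmed mean of M values), which corrects for differences in library composition. ITP itself averaged 58.6 ± 6.2 CPM in yki3SA+ITP-i tubules, 68.3 ± 10.4 CPM in yki3SA tubules and 37.0 ± 6.7 CPM in control tubules (SD, n = 3 each). ITP did not pass the test between yki3SA+ITP-i and yki3SA tubules (log2 fold change -0.22, edgeR adjusted p = 0.35). Against control, ITP was higher in yki3SA tubules (0.89, edgeR adjusted p = 0.003) and in yki3SA+ITP-i tubules (0.67, edgeR adjusted p = 0.027). The gene yki passed in no comparison (edgeR adjusted p from 0.34 to 0.75). The driver acts in gut and stem cells, so tubule RNA does not show how far ITP was lowered there. Uro, CapaR, ct and Irk3, markers of principal cells, and Lkr, ClC-a and tsh, markers of stellate cells, were detected in all 9 libraries.

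Mur18B held 4.45%, 3.93% and 4.71% of all counts in the yki3SA+ITP-i libraries, 2.58%, 2.73% and 2.23% in the yki3SA libraries and 5.02%, 5.69% and 4.69% in the control libraries. The means were 4.36 ± 0.397% in yki3SA+ITP-i, 2.51 ± 0.257% in yki3SA and 5.13 ± 0.51% in control tubules (SD, n = 3 each). At this depth the counting error is negligible: the 95% Wilson half-width of a single share was 0.00412 to 0.00725 percentage points, which covers counting error only, since PCR copies of a read are not independent molecules. All 3 yki3SA libraries lay below the other 6, and the yki3SA+ITP-i and control ranges overlapped. Mur18B was the most counted gene in 8 of 9 libraries. In yki3SA library 1 it came second to mt:lrRNA, the large ribosomal RNA of the mitochondrion, which held 2.71% there. Over the 9 libraries mt:lrRNA was also the gene directly below Mur18B, with a mean share of 2.56% beside 4.00% for Mur18B.

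**Figure D1:**
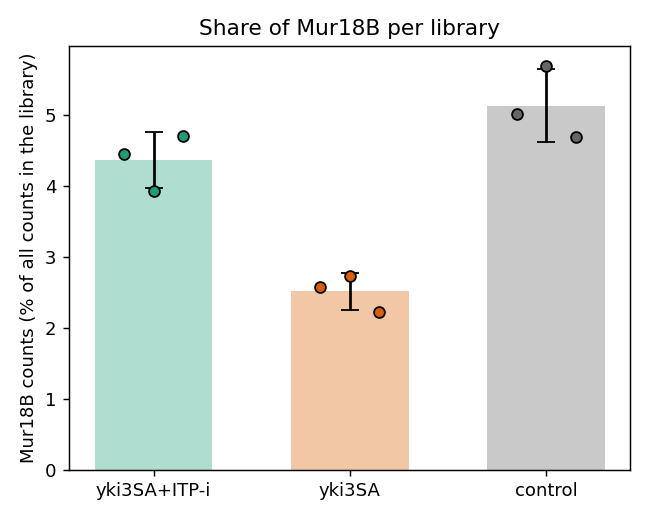
Share of Mur18B in all counts assigned to genes (percent, linear axis) in each library, as points, with bars for the mean of 3 libraries and lines for the SD. The yki3SA libraries sit between 2.23% and 2.73%, below all yki3SA+ITP-i libraries (3.93% to 4.71%) and all control libraries (4.69% to 5.69%).

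The other members ranged over many orders of magnitude below Mur18B. Mur29B ranked 128, 132 and 153 by counts in the yki3SA+ITP-i libraries, 282, 243 and 253 in the yki3SA libraries, and 975, 1165 and 1325 in the control libraries. Mur2B ranked between 1913 and 3255 in all 9. Mur89F was barely detected, with 9, 3 and 1 counts in the yki3SA+ITP-i libraries, 0, 6 and 2 in the yki3SA libraries, and 4, 7 and 3 in the control libraries. Mur11Da had 0 or 1 count in every library. Mur82C had 0 counts in all 9, which allows a level of up to 0.0608 to 0.0866 CPM depending on the library (3 counts, counting error only, here scaled by all counts without TMM). Mur18B, Mur29B and Mur2B therefore passed the filter on low counts and were tested, while Mur89F, Mur11Da and Mur82C did not pass it. No difference between groups was detectable at this depth for these 3.

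Divided by exon length, the order of the tested members was the same. Per kilobase of exon, Mur18B averaged 27654 ± 1999 CPM in yki3SA+ITP-i, 13981 ± 2225 CPM in yki3SA and 34653 ± 2795 CPM in control tubules (SD, n = 3 each). On that scale it ranked 1 of 10232 genes in yki3SA+ITP-i and in control tubules, and 3 in yki3SA tubules. Mur29B averaged 621, 319 and 80.8 CPM per kilobase in yki3SA+ITP-i, yki3SA and control tubules, and Mur2B 8.03, 5.50 and 10.4 CPM per kilobase in the same groups. Within every group these levels were far apart compared with the spread between libraries.

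Levels per library are given next in TMM-scaled CPM. A gene is called at an edgeR quasi-likelihood adjusted p under 0.05 over all 10253 tested genes. Mur18B stood at 47303, 41063 and 45616 CPM in the yki3SA+ITP-i libraries, 24343, 24952 and 18445 CPM in the yki3SA libraries, and 57056, 59834 and 51005 CPM in the control libraries. The 3 groups did not overlap on this scale, with control highest and yki3SA lowest. Mur29B stood at 1278, 1192 and 1039 CPM in the yki3SA+ITP-i libraries, 594, 663 and 545 CPM in the yki3SA libraries, and 188, 145 and 124 CPM in the control libraries. Its 3 groups did not overlap either, but they stood in another order, with control lowest and yki3SA+ITP-i highest. Mur2B stood at 63.8, 81.1 and 39.6 CPM in the yki3SA+ITP-i libraries, 39.8, 45.1 and 41.6 CPM in the yki3SA libraries, and 85.0, 77.4 and 77.7 CPM in the control libraries. The yki3SA libraries lay below the control libraries for Mur2B, while the yki3SA+ITP-i libraries spanned both, with library 3 lowest of all 9.

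**Figure D2:**
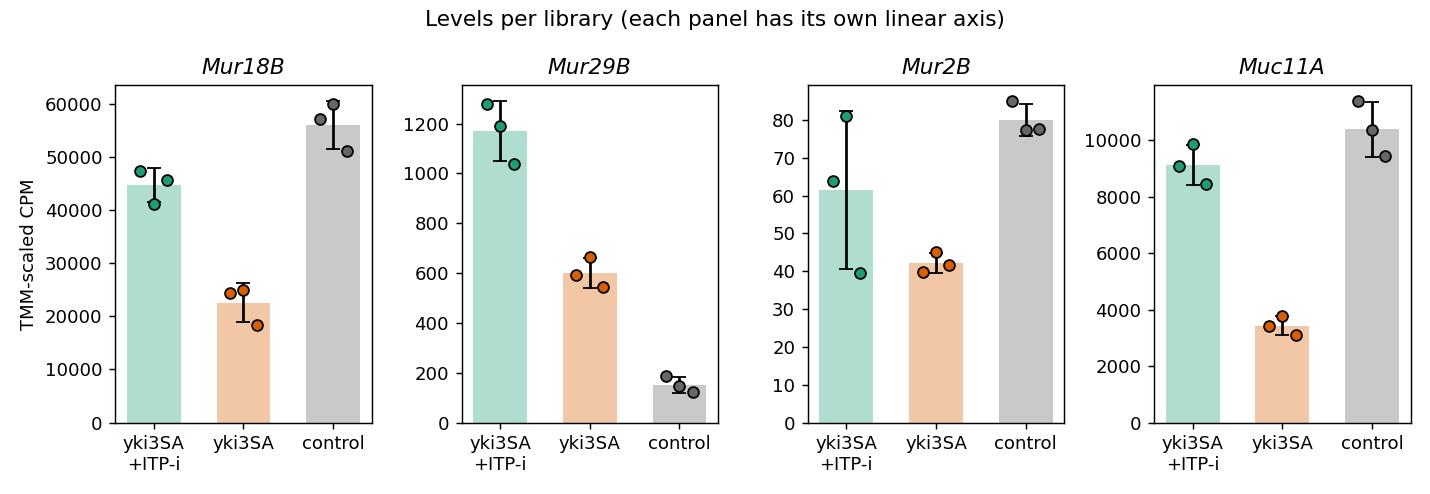
TMM-scaled CPM of Mur18B, Mur29B, Mur2B and the related mucin gene Muc11A in each library, as points, with bars for the group mean and lines for the SD (n = 3); each panel has its own linear axis from 0. Mur18B and Muc11A are lowest in the yki3SA libraries, Mur29B is lowest in the control libraries at 124 to 188 CPM, and the yki3SA+ITP-i libraries of Mur2B spread from 39.6 to 81.1 CPM.

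Tubules of yki3SA flies were compared with control tubules to ask how the renal tubule differs in flies with a yki3SA tumour. The driver also works in the tubule's own stem cells, so a tumour elsewhere and Yki-3SA made in the tubule cannot be told apart. Mur18B and Mur2B fell and Mur29B rose, so all 3 tested members were called, where 30.1% of all tested genes were (16.2% higher, 14% lower). Mur18B averaged 22580 ± 3594 CPM in yki3SA and 55965 ± 4514 CPM in control tubules (SD, n = 3 each), a log2 fold change of -1.31 (SE 0.14, 95% interval -1.63 to -0.99, adjusted p = 0.00016). Mur29B averaged 600 ± 59.3 CPM in yki3SA and 152 ± 32.4 CPM in control tubules, a log2 fold change of 1.98 (SE 0.17, 95% interval 1.60 to 2.36, adjusted p = 4.5e-05). Mur2B averaged 42.2 ± 2.72 CPM in yki3SA and 80.0 ± 4.34 CPM in control tubules, a log2 fold change of -0.93 (SE 0.21, 95% interval -1.40 to -0.45, adjusted p = 0.0097). Among the 10253 genes, Mur29B had the 286th highest fold change and Mur18B the 908th lowest. In bulk RNA, fewer cells of the type that makes a transcript and less RNA per cell cannot be told apart.

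Tubules of yki3SA+ITP-i flies were compared with those of yki3SA flies to ask how they differ when the ITP-i construct is added. Mur18B and Mur29B were both higher with ITP-i by nearly the same factor, so 2 of the 3 tested members were called, both upward, where 20.7% of all tested genes were called (10.6% higher, 10.1% lower). Mur18B averaged 44661 ± 3228 CPM in yki3SA+ITP-i tubules, against 22580 ± 3594 CPM in yki3SA tubules, a log2 fold change of 0.98 (SE 0.14, 95% interval 0.67 to 1.30, adjusted p = 0.0017). Mur29B averaged 1170 ± 121 CPM in yki3SA+ITP-i tubules, against 600 ± 59.3 CPM in yki3SA tubules, a log2 fold change of 0.96 (SE 0.16, 95% interval 0.59 to 1.33, adjusted p = 0.0040). Mur2B was not called, at 61.5 ± 20.9 CPM in yki3SA+ITP-i and 42.2 ± 2.72 CPM in yki3SA tubules (log2 fold change 0.55, 95% interval 0.07 to 1.02, adjusted p = 0.093). The call depends on 1 library and on the tool: without yki3SA+ITP-i library 3 the log2 fold change of Mur2B was 0.78 and its adjusted p 0.0048, within a range of 0.0048 to 0.29 over the fits that left out 1 library each. With all 9 libraries, DESeq2 gave 0.58 and an adjusted p of 0.046. This comparison and the previous one share the 3 yki3SA libraries, so opposite signs in them are not independent observations.

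Between yki3SA+ITP-i and control tubules the members differed in how close they came to the control level. Only Mur29B was called among the 3 tested members, where 10.5% of all tested genes were (6.37% higher, 4.14% lower). It averaged 1170 ± 121 CPM in yki3SA+ITP-i and 152 ± 32.4 CPM in control tubules, 7.68-fold higher (log2 fold change 2.94, SE 0.18, 95% interval 2.55 to 3.33, adjusted p = 1.1e-05), the 197th highest of 10253 fold changes. Mur18B averaged 44661 ± 3228 CPM in yki3SA+ITP-i and 55965 ± 4514 CPM in control tubules, and its libraries did not overlap, but it was not called (log2 fold change -0.33, 95% interval -0.64 to -0.01, adjusted p = 0.19). Mur2B overlapped and was not called either (log2 fold change -0.38, 95% interval -0.85 to 0.09, adjusted p = 0.32). Without yki3SA+ITP-i library 2 the value of Mur2B was -0.65, and without library 3 it was -0.14, neither called.

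**Figure D3:**
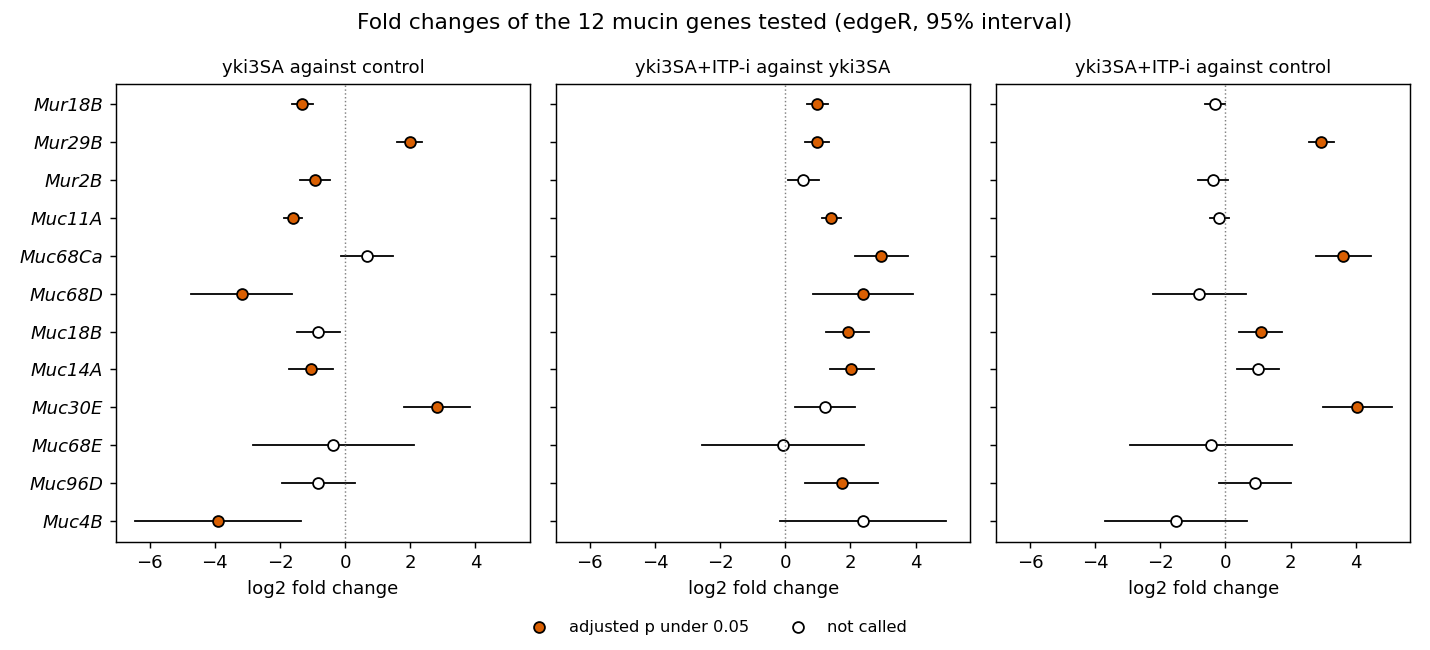
Log2 fold changes of the 12 tested mucin-related and mucin genes in the 3 comparisons, with 95% intervals as lines; filled points passed an edgeR adjusted p under 0.05 and open points did not. Mur18B and Muc11A lie left of 0 in yki3SA against control and right of 0 in yki3SA+ITP-i against yki3SA, while Mur29B lies right of 0 in all 3 panels.

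Ratios of counts within a library do not depend on how libraries are scaled. Mur18B had 37.0, 34.4 and 43.9 counts for each count of Mur29B in the yki3SA+ITP-i libraries, 41.0, 37.7 and 33.9 in the yki3SA libraries, and 304, 411 and 412 in the control libraries. Both tumour groups thus overlapped each other and lay far below control. Mur18B had 741, 506 and 1153 counts for each count of Mur2B in the yki3SA+ITP-i libraries, 612, 553 and 444 in the yki3SA libraries, and 671, 773 and 656 in the control libraries. Here the yki3SA libraries lay below the control libraries, and the range of the yki3SA+ITP-i libraries took in all control libraries and 2 of the 3 yki3SA libraries. A ratio that differs between groups shows that the pair changed unequally, and not which gene of it changed.

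**Figure D4:**
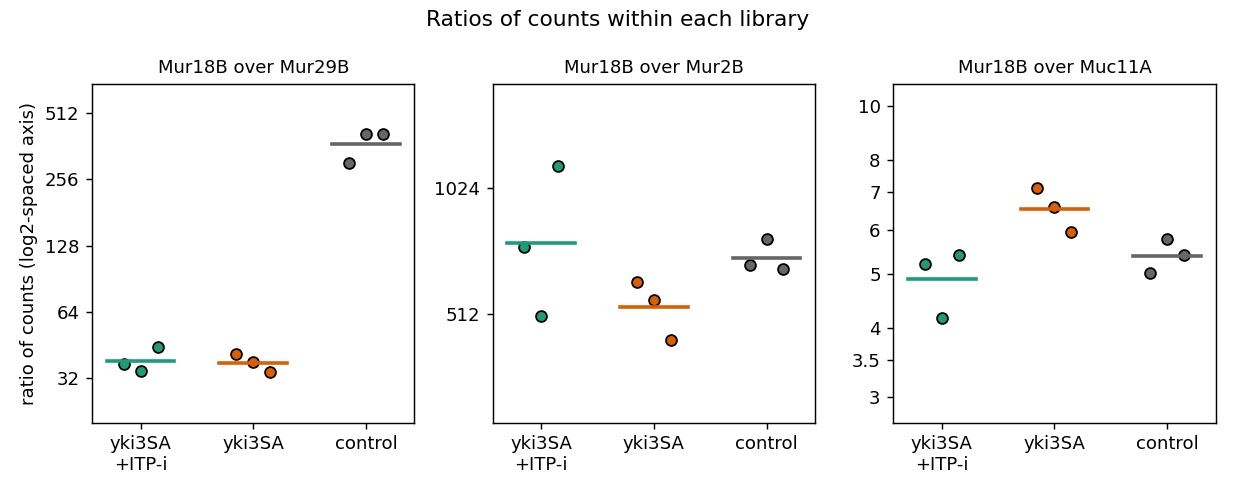
Ratio of Mur18B counts to those of Mur29B, Mur2B and Muc11A within each library, as points on log-spaced axes that differ between panels; lines mark the geometric mean of 3 libraries. For Mur29B, the yki3SA+ITP-i and yki3SA libraries lie between 33.9 and 43.9 and the control libraries between 304 and 412.

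The table also holds 13 genes named Muc, of which 9 passed the filter; Muc12Ea, Muc91C and Muc55B had 49, 3 and 10 counts over all libraries and Muc26B had none. Muc11A was by far the most counted of the 13, though below Mur18B in every library. It stood at 9090, 9878 and 8460 CPM in the yki3SA+ITP-i libraries, 3419, 3787 and 3098 CPM in the yki3SA libraries, and 11395, 10358 and 9446 CPM in the control libraries. The yki3SA libraries lay below all others, and the yki3SA+ITP-i and control libraries overlapped. Its log2 fold change was -1.60 in yki3SA against control tubules (SE 0.13, adjusted p = 3.3e-05), 1.41 in yki3SA+ITP-i against yki3SA tubules (SE 0.13, adjusted p = 0.00015) and -0.19 in yki3SA+ITP-i against control tubules (SE 0.13, adjusted p = 0.43). Mur18B had 5.20, 4.16 and 5.39 counts for each count of Muc11A in the yki3SA+ITP-i libraries, 7.12, 6.59 and 5.95 in the yki3SA libraries, and 5.01, 5.78 and 5.40 in the control libraries, so the ratio was highest in yki3SA. Together, Mur18B and Muc11A held 97.31% to 99.64% of the counts of all 19 Mur and Muc genes in each library. All 19 genes held 5.38 ± 0.353% of the counts in yki3SA+ITP-i, 2.97 ± 0.272% in yki3SA and 6.11 ± 0.562% in control tubules (SD, n = 3 each).

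The other Muc genes were scarce. Counted together with Muc11A, 9 Muc genes were tested. Of these 9, 1 rose and 4 fell in yki3SA against control tubules, where 16.2% of all tested genes rose and 14% fell. Their median log2 fold change was -0.83 beside 0.07 over all tested genes. In yki3SA+ITP-i against yki3SA 6 rose and none fell, where 10.6% of all tested genes rose and 10.1% fell (median 1.91 beside -0.04). In yki3SA+ITP-i against control 3 rose and none fell, where 6.37% of all tested genes rose and 4.14% fell (median 0.91 beside 0.00). Muc30E averaged 4.60 ± 1.72, 1.97 ± 0.578 and 0.278 ± 0.126 CPM in yki3SA+ITP-i, yki3SA and control tubules (SD, n = 3 each), and like Mur29B it was lowest in control. It rose by 2.82 (log2, adjusted p = 0.0016) in yki3SA against control and by 4.05 (adjusted p = 0.00051) in yki3SA+ITP-i against control, and was not called between the tumour groups (1.22, adjusted p = 0.060). Muc68Ca averaged 27.3 ± 4.22, 3.58 ± 1.86 and 2.22 ± 0.673 CPM in the same order of groups. It was highest in all 3 yki3SA+ITP-i libraries, by 2.94 on the log2 scale against yki3SA (adjusted p = 0.00075) and by 3.62 against control (adjusted p = 0.00027), with 0.68 between yki3SA and control (adjusted p = 0.18).

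Muc68D and Muc14A fell in yki3SA against control, and Muc18B, with a log2 fold change of -0.83, was not called there (adjusted p = 0.059). Muc68D averaged 8.84 ± 5.36, 1.70 ± 0.634 and 15.4 ± 11.4 CPM in yki3SA+ITP-i, yki3SA and control tubules, Muc14A 5.43 ± 0.855, 1.33 ± 0.379 and 2.73 ± 0.377 CPM, and Muc18B 12.5 ± 5.20, 3.33 ± 0.536 and 5.91 ± 1.15 CPM (SD, n = 3 each). Muc68D fell by 3.18 on the log2 scale in yki3SA against control (adjusted p = 0.0078), and its rise with ITP-i of 2.38 (adjusted p = 0.035) missed the threshold in 8 alternatives, among them those without yki3SA+ITP-i library 1 or 3 or without any 1 yki3SA library, where it ranged from 1.83 to 2.58, and with limma-voom (2.33, adjusted p = 0.13). Muc14A rose by 2.03 in yki3SA+ITP-i against yki3SA (adjusted p = 0.0019), and its fall of 1.04 in yki3SA against control (adjusted p = 0.025) was not called without yki3SA library 2 (-0.86) or control library 1 (-0.95), nor with scaling by total counts (-0.75, adjusted p = 0.081). Muc18B rose by 1.91 in yki3SA+ITP-i against yki3SA (adjusted p = 0.0026), while its call of 1.08 against control (adjusted p = 0.045) ended in 13 alternatives and was 0.69 without yki3SA+ITP-i library 3. Muc96D (1.15, 0.344 and 0.614 CPM in the same order of groups) and Muc4B (0.199, 0.0354 and 0.577 CPM) had 1 call each that ended when single libraries were left out. These were 1.73 for Muc96D in yki3SA+ITP-i against yki3SA (adjusted p = 0.037; 1.60 to 1.95 with 1 library left out) and -3.91 for Muc4B in yki3SA against control (adjusted p = 0.028; -5.51 to -3.01). With all libraries Muc68E was called in none of the 3 comparisons, and 82 of its 88 counts in the yki3SA group came from library 2; without that library its log2 fold changes were -3.80 in yki3SA against control (adjusted p = 0.011, from 0.011 to 0.96 with 1 library left out) and 3.35 in yki3SA+ITP-i against yki3SA (adjusted p = 0.029, from 0.029 to 0.98), and both were then called.

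Among the enzymes that build mucin-type sugar chains, some genes rose and others fell. Of 14 Pgant genes, which start the chain, 10 were tested: 3 rose and 2 fell in yki3SA against control (median log2 fold change 0.03), 1 rose and 1 fell in yki3SA+ITP-i against yki3SA (0.10), and 2 rose in yki3SA+ITP-i against control (0.26). Of all tested genes, 30.1%, 20.7% and 10.5% were called in these comparisons, so 5, 2 and 2 calls among 10 genes do not set the family apart. Pgant3 had the smallest p, at 69.6 ± 5.3 CPM in yki3SA+ITP-i, 125 ± 16.0 CPM in yki3SA and 30.3 ± 3.4 CPM in control tubules (SD, n = 3 each). It rose by 2.04 on the log2 scale in yki3SA against control (adjusted p = 8.2e-06), fell by 0.84 in yki3SA+ITP-i against yki3SA (adjusted p = 0.0020) and was 1.20 higher in yki3SA+ITP-i than in control (adjusted p = 0.00031). Pgant9 ran the other way, with 178 ± 27.0, 112 ± 9.81 and 197 ± 43.7 CPM in yki3SA+ITP-i, yki3SA and control tubules. It fell by 0.82 in yki3SA against control (adjusted p = 0.0067), and its rise with ITP-i of 0.67 (adjusted p = 0.024) missed the threshold without yki3SA+ITP-i library 1 or 2 or yki3SA library 1 or 3 (0.60 to 0.65). The number of Pgant genes called ranged from 2 to 5, 1 to 4 and 1 to 2 in the 3 comparisons when 1 library was left out.

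Of 13 core 1 galactosyltransferase and glucuronyltransferase genes, which lengthen or cap sugar chains, 9 were tested. The data do not show whether each of them acts on mucins. In yki3SA against control 1 rose and 2 fell (median log2 fold change 0.00), in yki3SA+ITP-i against yki3SA 2 rose and 2 fell (0.58), and none was called in yki3SA+ITP-i against control (-0.07). The shares over all tested genes were 30.1%, 20.7% and 10.5%, and with 9 genes these counts are no result about the list. C1GalTA, a core 1 galactosyltransferase, averaged 46.6 ± 0.824, 30.7 ± 0.977 and 78.4 ± 33.5 CPM in yki3SA+ITP-i, yki3SA and control tubules (SD, n = 3 each) and fell by 1.35 in yki3SA against control (adjusted p = 0.0057). GlcAT-S, a glucuronyltransferase, averaged 54.8 ± 6.77, 32.7 ± 4.55 and 66.0 ± 8.62 CPM. It fell by 1.01 in yki3SA against control (adjusted p = 0.00091) and rose by 0.75 in yki3SA+ITP-i against yki3SA (adjusted p = 0.0077). In contrast, tgy and GlcAT-I were highest in yki3SA. The scarce tgy, a core 1 galactosyltransferase family gene, averaged 1.32 ± 0.236, 4.81 ± 1.64 and 2.27 ± 0.231 CPM. It fell by 1.86 in yki3SA+ITP-i against yki3SA (adjusted p = 0.0048), and its rise of 1.08 in yki3SA against control (adjusted p = 0.031) was not called without yki3SA library 2 (0.89) or 3 (0.92), without control library 1 (1.14), 2 (1.02) or 3 (1.0), or with the replicate block (1.07, adjusted p = 0.054). GlcAT-I averaged 52.3 ± 2.14, 68.5 ± 4.39 and 54.9 ± 6.68 CPM, and its fall of 0.39 with ITP-i (adjusted p = 0.037) was not called in 15 alternatives, the replicate block included (-0.39, adjusted p = 0.052).

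Of 12 genes that supply activated sugars, all tested, 2 rose and 4 fell in yki3SA against control (median log2 fold change -0.22), 3 rose in yki3SA+ITP-i against yki3SA (0.26), and 2 rose and 4 fell in yki3SA+ITP-i against control (0.14), where 30.1%, 20.7% and 10.5% of all tested genes were called in either direction. UGP, which makes UDP-glucose, averaged 479 ± 77.7, 304 ± 63.8 and 1001 ± 206 CPM in yki3SA+ITP-i, yki3SA and control tubules (SD, n = 3 each). It fell by 1.72 in yki3SA against control (adjusted p = 0.00030) and fell by 1.06 in yki3SA+ITP-i against control (log2, adjusted p = 0.0090). Gnpnat, an acetyltransferase on the route to UDP-N-acetylglucosamine, averaged 31.0 ± 1.97, 25.2 ± 2.03 and 51.4 ± 5.02 CPM in the same order, and fell by 1.03 in yki3SA against control (adjusted p = 0.00019) and by 0.73 in yki3SA+ITP-i against control (adjusted p = 0.0030). The 3 calls between the tumour groups were not stable: none was left without yki3SA+ITP-i library 1 or 2 or without yki3SA library 2 or 3 (0 calls each), and 1 call was left without control library 3.

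Of 28 genes for chitin turnover and the peritrophic matrix, 20 were tested; 3 rose and 1 fell in yki3SA against control (median log2 fold change 0.09), 2 rose and 1 fell in yki3SA+ITP-i against yki3SA (0.34), and 3 rose and 1 fell in yki3SA+ITP-i against control (0.39). The 4 and 3 calls of the first 2 comparisons lie below the shares of all tested genes, 30.1% and 20.7%; for the last comparison that share was 10.5%. The chitinase genes Cht4 and Cht5 were high in both tumour groups. Cht4 averaged 202 ± 15.8, 161 ± 78.5 and 20.1 ± 9.7 CPM in yki3SA+ITP-i, yki3SA and control tubules (SD, n = 3 each), a log2 rise of 3.0 in yki3SA (adjusted p = 0.00044) and of 3.33 in yki3SA+ITP-i (adjusted p = 0.00055) against control. Cht5 averaged 14.7 ± 2.97, 18.4 ± 8.05 and 3.98 ± 0.289 CPM, a rise of 2.21 in yki3SA (adjusted p = 0.00054) and of 1.88 in yki3SA+ITP-i (adjusted p = 0.0027). Chs2, a chitin synthase, averaged 326 ± 63.7, 146 ± 12.2 and 190 ± 33.0 CPM and rose by 1.16 in yki3SA+ITP-i against yki3SA (adjusted p = 0.0020).

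In the Ensembl annotation Mur18B lies on the X chromosome, with 1615 bases of exon and a reading frame of 481 codons, beside Muc18B on the same strand. Muc18B was present at far lower levels, with 1 count for every 5101, 4224 and 2467 counts of Mur18B in the yki3SA+ITP-i libraries, 6421, 7193 and 6720 in the yki3SA libraries, and 10668, 8260 and 9898 in the control libraries. Its other neighbour, CG14195, averaged 426 ± 14.2, 347 ± 27.2 and 553 ± 19.8 CPM in yki3SA+ITP-i, yki3SA and control tubules, a log2 fold change of -0.67 in yki3SA against control (adjusted p = 0.0013). Mur29B lies on arm 2L (1884 exon bases, 555 codons). Its same-strand neighbour CG7778 averaged 61.3 ± 1.9, 57.9 ± 4.73 and 9.01 ± 6.05 CPM in the same order of groups and, like Mur29B, rose in yki3SA against control (2.68, adjusted p = 0.00085) and in yki3SA+ITP-i against control (2.77, adjusted p = 0.0015). It was not called between the tumour groups (0.08, adjusted p = 0.90), and the neighbour on the opposite strand, CG7627, was called in no comparison.

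Mur2B is a long X-linked gene with 7661 exon bases, of which 493 overlap exons of br, sncRNA:400 or CG3740. Of these, sncRNA:400 and CG3740 lie on the same strand as Mur2B and br on the opposite strand. Whether counting used strand is not given in the sources used here, and it bears only on br. Mur2B counts may hold reads of these genes. CG3740 averaged 8.60, 14.7 and 7.46 CPM in yki3SA+ITP-i, yki3SA and control tubules, opposite in order to Mur2B, and br 4.03, 1.74 and 3.16 CPM. Mur11Da lies on the X chromosome (626 codons) and Mur82C and Mur89F on arm 3R (578 and 2159 codons). Mur89F shares 777 exon bases with CG5292 on the opposite strand, which averaged 15.1, 21.3 and 10.7 CPM in the same order of groups, far above Mur89F itself.

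The genes whose levels ran most like those of each tested member were found by Pearson correlation of log2 CPM over the 9 libraries. These libraries form 3 groups of 3, so the values mostly reflect the order of the group means and are a description. For Mur18B these were CG32023 (r = 0.992), CG6225 (0.990) and Tsp42Eq, a tetraspanin (0.988). CG32023 averaged 978 ± 54.1, 466 ± 82.8 and 1175 ± 20.1 CPM in yki3SA+ITP-i, yki3SA and control tubules (SD, n = 3 each). For Mur29B they were CG3603 (0.992), Srg2 (0.989) and Jon66Cii, a serine protease of the gut (0.989, with 0 counts in the control libraries). Jon66Cii was scarce, at 2.37 ± 1.02 CPM in yki3SA+ITP-i and 0.701 ± 0.209 CPM in yki3SA tubules. It was 1 of 2 gut enterocyte markers that rose in yki3SA against control, while 22 of 39 fell. Srg2 averaged 688 ± 105, 141 ± 14.5 and 6.05 ± 0.812 CPM. For Mur2B they were zetaTry, a trypsin (0.971, with 0 counts in the yki3SA libraries), Dys, which encodes dystrophin (0.970), and Hip14, a palmitoyltransferase (0.965). The scarce zetaTry averaged 0.569 ± 0.754 CPM in yki3SA+ITP-i and 3.15 ± 0.912 CPM in control tubules. Among the mucin genes Muc11A was the most like Mur18B (r = 0.970, 51st of all tested genes) and Muc30E the most like Mur29B (0.957, 31st), while Mur18B and Mur29B had r = -0.392.

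Markers of other tissues moved with the groups too, and their sums were lowest in yki3SA, as Mur18B was. Summed levels of 14 fat body markers were 1936 to 3511 CPM in yki3SA+ITP-i, 209 to 394 CPM in yki3SA and 2356 to 5365 CPM in control libraries (here scaled by all counts, without TMM). For 42 gut enterocyte markers the sums were 255 to 632, 68.3 to 255 and 540 to 1348 CPM, and for 25 ovary and egg shell genes 55.2 to 186, 10.2 to 44.6 and 147 to 331 CPM, in the same order of groups. In yki3SA against control, 7 of 14 fat body genes tested fell and 1 rose, where 14% of all tested genes fell and 16.2% rose. The counts were 22 lower and 2 higher of 39 for the gut, and 18 lower and 0 higher of 25 for the ovary. These lists were chosen with earlier results of these data known, so their counts beside the shares are a description. In yki3SA+ITP-i against yki3SA 7, 14 and 14 genes of these lists rose, and 1, 1 and 0 fell, where 10.6% of all tested genes rose and 10.1% fell. No gene of these 3 lists was at 0 in all libraries. For the tubule's own cells, 8 of 17 principal cell markers fell and 1 rose in yki3SA against control, with sums of 18774 to 22286, 16606 to 18956 and 19013 to 23257 CPM in yki3SA+ITP-i, yki3SA and control libraries. Of 9 stellate cell markers 3 fell and none rose, while their sums overlapped at 1978 to 2301, 2062 to 2348 and 2014 to 2405 CPM in the same order of groups. In yki3SA+ITP-i against yki3SA, 7 principal cell markers rose and 1 fell, and 1 stellate cell marker rose. Sums of 8 hemocyte markers were 97.7 to 140, 51.4 to 92.5 and 110 to 198 CPM, of 6 renal stem cell markers 5.25 to 10.4, 6.81 to 16.9 and 8.21 to 9.64 CPM, and of 11 male tract genes 8.84 to 18.7, 2.19 to 3.55 and 6.84 to 24.9 CPM in yki3SA+ITP-i, yki3SA and control libraries. The part of these tissues in the mucin results was not tested.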

How the data were processed

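The authors deposited 1 table of raw counts per gene for 9 libraries. TopHat, HTSeq, Cufflinks and DESeq are named in the submitters' processing notes without versions or roles; the genome build, annotation release, strand setting and treatment of reads that match several places were not given in the sources used here, so no coordinates or sequences are printed. Of 17611 gene IDs, 17552 matched a symbol; exon lengths, neighbours and overlaps come from Ensembl's BDGP6.54 annotation.

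Counts were analysed with edgeR 4.0.16 in R 4.3.3: filterByExpr, TMM, glmQLFit and glmQLFTest over 3 groups of 3 libraries fitted together, with Benjamini-Hochberg adjustment over 10253 genes and a call at 0.05. DESeq2 1.42.0, limma 3.58.1 (voom), other scalings and filters, a replicate block and leaving out libraries were alternatives. The fits were tested on simulated data. The members, the gene lists and the marker lists were chosen with earlier results of these data known. Named were the members, the Muc genes, at most 2 risen and 2 fallen called genes per list and comparison by smallest p, and the 3 genes most correlated with each tested member (log2 CPM, prior count 2). Counts of replicate libraries differed by more than sampling noise, so none was treated as a duplicate.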

Additional observations from a re-analysis of the deposited data

How the results depend on the processing

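Mur18B and Mur29B kept their direction and their side of the threshold in all 3 comparisons under every alternative run, and so did Mur2B in the 2 comparisons with control. Leaving out 1 library at a time, log2 fold changes ranged from -1.42 to -1.20, 0.87 to 1.08 and -0.40 to -0.28 for Mur18B, from 1.82 to 2.13, 0.89 to 1.06 and 2.80 to 3.11 for Mur29B, and from -1.01 to -0.91, 0.31 to 0.78 and -0.65 to -0.14 for Mur2B, in yki3SA against control, yki3SA+ITP-i against yki3SA and yki3SA+ITP-i against control. The number of members called was 3, 2 to 3 and 1. Mur2B in yki3SA+ITP-i against yki3SA became called with DESeq2 (0.58, adjusted p = 0.046) and without both tumour libraries numbered 3, chosen after seeing the data (0.77, adjusted p = 0.016; 0.016 to 0.22 over the alternatives that left no single library out). Scaling by total counts moved the all-gene median (log2) by 0.29, -0.20 and 0.09 and gave -1.03, 0.80 and -0.23 for Mur18B, 2.27, 0.76 and 3.03 for Mur29B and -0.63, 0.33 and -0.30 for Mur2B. The share of calls that were higher was 53.7%, 51.2% and 60.6% with TMM, 77.9%, 28.2% and 71.9% with total counts, 47.1%, 57.7% and 58.6% with DESeq2 size factors and 45.2%, 63.1% and 59.5% with upper-quartile scaling. Leaving Mur18B out of the library sizes did not change its own values (-1.31, 0.98 and -0.33). With the 100 most abundant genes left out of the total, its share was 6.37% in yki3SA+ITP-i, 3.53% in yki3SA and 7.54% in control. With 1 library left out, Muc68E ranged from -3.80 to 0.16 in yki3SA against control and from -0.61 to 3.35 in yki3SA+ITP-i against yki3SA. It changed sign in yki3SA against control without both tumour libraries numbered 3 (0.17), without yki3SA library 1 (0.16) or without yki3SA library 3 (0.14), and in yki3SA+ITP-i against yki3SA with voom (1.68), with the replicate block (0.77), without yki3SA+ITP-i library 2 (0.14) or without yki3SA library 2 (3.35); the cause was not tested.

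Of 9 pairs of libraries with the same number, 3 had correlated deviations over 0.1 (-0.0815 to 0.175). Pairs with different numbers ranged from -0.259 to 0.143, and yki3SA+ITP-i library 2 correlated best with control library 1 (0.143). Pairing by number was thus not established, though the highest values (0.175, 0.166 and 0.155) were of pairs with the same number. With the number as a replicate block the log2 fold changes of Mur18B were -1.32, 1.0 and -0.32, and no member changed its call; the call of Muc18B in yki3SA+ITP-i against control was lost (1.06, adjusted p = 0.076), and no other Muc gene changed its call. Depth limits Mur89F, Mur11Da and Mur82C, which could not be compared.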
